A study of Mus musculus with 28 samples.

Results

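A set of 8 genes, listed together as Notch target genes, was followed in satellite cells of the mouse, which renew and repair skeletal muscle: Hes1, Hes5, Hes6, Hey1, Hey2, Heyl, Nrarp and Dtx4. They were chosen by symbol, and all 8 were found in each of the 4 deposited tables, which list 22552 genes each. The series compares cells of SIRT1mKO mice, in which a Pax7 Cre knock-in allele removes the floxed exon 4 of Sirt1, with cells of WT mice on a C57Bl/6 background. KO stands for SIRT1mKO throughout. Of 28 samples, the 18 polyA RNA-seq libraries are used here, and the 10 ChIP-seq and input samples were not analysed here. Cells were taken by FACS. FI cells are freshly isolated and quiescent, Cul cells proliferate in 20% fetal bovine serum with 12.5 ng/mL bFGF, and Diff cells spent 24 hours in 2% horse serum, per the labels. The groups hold 3 KO_FI, 2 KO_Cul, 2 KO_Diff, 5 WT_FI, 4 WT_Cul and 2 WT_Diff libraries. Because Cre is driven from Pax7, the deletion is expected only in cells that express or once expressed Pax7, and any other cell in the sort keeps its Sirt1 alleles. The labels give no age, sex or number of animals, so the spread between libraries may be partly technical.

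Notch receptors are cut after binding a ligand on a neighbouring cell, and the freed intracellular part joins the DNA-binding protein RBPJ to switch on target genes. The best known targets are the bHLH repressors of the Hes and Hey families, which block differentiation factors such as MyoD. In satellite cells Notch activity is known for holding the quiescent state. Nrarp and the Deltex ubiquitin ligases, of which Dtx4 is a member, act back on the Notch intracellular part. Hes6 differs from the other Hes proteins: it antagonises Hes1 and is known in mouse for accompanying myoblast differentiation. Whether Hes6 or any other gene of the set responds to Notch in these cells was not tested.

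Promoter windows of 300 bases from RefSeq (build GRCm38.p6) were at hand for 4 of the 8 genes, 5 windows in all, since Hes6 has a pair of annotated starts. They are shown because the genes split into members that were lower and a member that was higher in culture, and the windows let the RBPJ core motif and an E-box be read beside those values. Each runs 5′ to 3′ on the gene's own strand, and capitals mark a match to the RBPJ core TGGGAA, its reverse complement TTCCCA, or the E-box CAGCTG, which reads the same on both strands and shares no overlap with the other motif.
Hes5, chr4:154960673-154960972, plus strand: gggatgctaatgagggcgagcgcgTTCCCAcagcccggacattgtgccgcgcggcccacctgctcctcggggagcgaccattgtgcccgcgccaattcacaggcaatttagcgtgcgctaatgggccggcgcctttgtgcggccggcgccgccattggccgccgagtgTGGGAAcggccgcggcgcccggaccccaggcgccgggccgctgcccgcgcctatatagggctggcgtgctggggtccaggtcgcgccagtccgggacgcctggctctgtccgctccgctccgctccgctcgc
Hey2, chr10:30842734-30843033, minus strand: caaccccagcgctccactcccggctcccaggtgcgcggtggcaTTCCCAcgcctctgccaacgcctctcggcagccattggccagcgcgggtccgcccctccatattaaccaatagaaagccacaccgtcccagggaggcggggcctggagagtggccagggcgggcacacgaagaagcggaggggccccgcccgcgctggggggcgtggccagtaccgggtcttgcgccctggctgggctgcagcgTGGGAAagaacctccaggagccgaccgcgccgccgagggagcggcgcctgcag
Nrarp, chr2:25180508-25180807, plus strand: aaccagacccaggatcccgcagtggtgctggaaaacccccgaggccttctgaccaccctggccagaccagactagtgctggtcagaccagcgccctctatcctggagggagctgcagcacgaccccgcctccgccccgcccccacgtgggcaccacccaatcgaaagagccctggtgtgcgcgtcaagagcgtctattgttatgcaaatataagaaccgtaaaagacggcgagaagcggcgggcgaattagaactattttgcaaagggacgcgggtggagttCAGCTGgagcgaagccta
Hes6, upstream window, chr1:91413989-91414288, minus strand: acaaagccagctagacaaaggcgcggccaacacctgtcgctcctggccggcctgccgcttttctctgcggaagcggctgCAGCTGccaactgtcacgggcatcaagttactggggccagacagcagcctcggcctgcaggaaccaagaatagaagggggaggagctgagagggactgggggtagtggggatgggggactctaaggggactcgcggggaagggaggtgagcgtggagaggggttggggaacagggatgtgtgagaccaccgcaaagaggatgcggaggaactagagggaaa
Hes6, downstream window, chr1:91413173-91413472, minus strand: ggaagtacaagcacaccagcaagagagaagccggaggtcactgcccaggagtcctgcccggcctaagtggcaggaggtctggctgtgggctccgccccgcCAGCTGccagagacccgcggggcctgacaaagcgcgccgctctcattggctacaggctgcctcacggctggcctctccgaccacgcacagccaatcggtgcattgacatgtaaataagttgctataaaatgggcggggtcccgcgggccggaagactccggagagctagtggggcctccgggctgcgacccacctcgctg
At least 1 RBPJ core match, on either strand, was present in 25.6% of all 32851 promoter windows of this length, and at least 1 CAGCTG in 16.3%. The share of windows with 2 matches was not counted. Hes5 and Hey2 each held 2 RBPJ core matches and no CAGCTG. Nrarp held 1 CAGCTG and no RBPJ core, and each Hes6 window held 1 CAGCTG and no RBPJ core. A match is a description of letters, not a binding site, and the absence of one says nothing about the factor.

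Total fragments per library were 28010691 to 65324684 in the FI table, 75674366 to 82590642 in Cul, 71858446 to 82825550 in Diff, and 24254119 to 31643216 in a table of WT_Cul and WT_FI alone, called the WT states table. Index, counted from 0, tells apart the libraries of a group in a table. Sirt1, counted over the whole gene and so also outside the removed exon, had 37.2 to 66.7 CPM in KO_FI against 46.8 to 84.0 CPM in WT_FI, 32.4 to 48.7 CPM in KO_Cul against 58.8 to 70.7 CPM in WT_Cul, and 26.6 to 43.5 CPM in KO_Diff against 26.7 to 55.3 CPM in WT_Diff (CPM is fragments per 1000000 fragments of the library). Libraries of the same label stood apart between tables. Pax7, the defining satellite cell factor, had 111 and 143 CPM in the WT_FI libraries of the WT states table and 771 to 1092 CPM in those of the FI table. The 8 pericyte and smooth muscle markers summed to 23322 and 29442 CPM in the WT_FI libraries of the WT states table and to 3606 to 8341 CPM in those of the FI table. The 9 endothelial markers summed to 545 and 589 CPM in the WT_FI libraries of the WT states table and to 223 to 861 CPM in the FI table. Index 1 of the Diff table had far more muscle differentiation RNA than index 0, with Myog, a differentiation factor, at 3340 CPM in KO_Diff and 1911 CPM in WT_Diff against 157 CPM in KO_Diff and 64.9 CPM in WT_Diff at index 0. In the WT states table, WT_Cul index 0 had 791 CPM of Myog and WT_Cul index 1 had 9.04 CPM. In such bulk samples, fewer cells of a type and less RNA per cell cannot be told apart.

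Per length, the genes differed widely in level in freshly isolated cells. In WT_FI of the FI table, mean FPKM (fragments scaled to gene length and library by the authors, table by table) was 234 ± 43.1 for Hes1, 204.5 ± 25.6 for Heyl and 157 ± 14.2 for Dtx4 (SD, n = 3 libraries). These are the 3 most abundant of the genes, and the ranges of Hes1 and Heyl overlapped. Hey1 followed at 62.4 ± 7.70 FPKM, Hes6 at 29.5 ± 7.99 FPKM and Nrarp at 20.4 ± 13.0 FPKM (SD, n = 3). Hes6 and Nrarp overlapped in range, whereas Hey1 lay above both in every library. Hey2, below Nrarp in every library, had 7.10 ± 2.93 FPKM, and Hes5 had 0.250 ± 0.161 FPKM (SD, n = 3), Hes5 resting on 4 to 28 fragments per library. In WT_FI of the WT states table the order was Hes1 (161 FPKM), Heyl (73.4 FPKM), Nrarp (51.7 FPKM), Dtx4 (35.5 FPKM), Hey2 (34.0 FPKM), Hey1 (22.2 FPKM), Hes6 (12.7 FPKM) and Hes5 (0.117 FPKM), as means of 2 libraries. The ranges of Dtx4 and Hey2 overlapped. Nrarp and Hey2 thus stood higher in the order there than in the FI table, and Dtx4, Hey1 and Hes6 lower. Between the tables' FPKM values only the order is compared, since each table was scaled by itself.

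**Figure D1:**
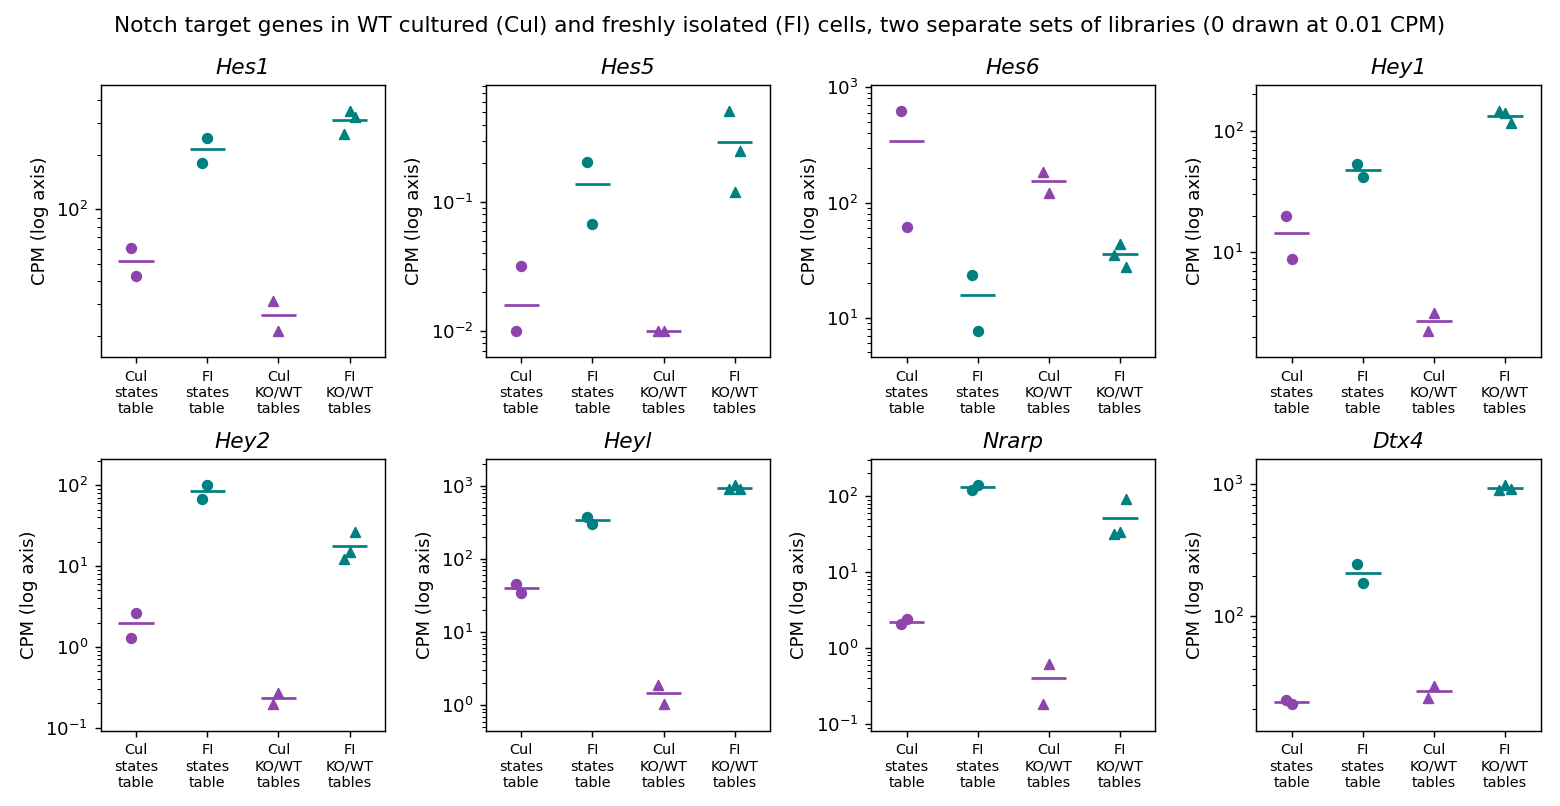
CPM (log axis) of each gene in WT_Cul and WT_FI libraries, circles for the WT states table and triangles for the KO/WT tables, with lines at group means and values of 0 drawn at 0.01 CPM. Every gene except Hes6 lies lower in Cul than in FI in both sets, and Heyl in Cul differs most between the sets, 40.2 CPM on average in the WT states table and 1.48 CPM in the Cul table.

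Most of the Notch targets were far lower in cultured than in freshly isolated cells. In the WT states table, 5 of the 7 genes tested fell in WT_Cul relative to WT_FI and none rose, where 16.0% of all 14680 genes tested were called lower and 12.6% higher (28.6% in either direction). Calls are adjusted p under 0.05 in edgeR's quasi-likelihood F test, with p adjusted by Benjamini-Hochberg across every gene of the fit. All 7 genes had groups that did not overlap in CPM, which held for 70.5% of all genes tested, so that count by itself is near what most genes showed. The median log2 fold change of the 7 genes was -3.08 and that of all genes tested 0.06. Hes5 had too few fragments to be tested in this table.

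Nrarp, the ankyrin-repeat feedback inhibitor of Notch, had 2.08 and 2.40 CPM in WT_Cul against 121 and 141 CPM in WT_FI. The WT_Cul values all lay far below the WT_FI values. The log2 fold change was -5.87 (SE 0.41, adjusted p = 0.00962, edgeR), a 58.4-fold lower level. Hey2, a Hey family repressor, had 1.29 and 2.62 CPM in WT_Cul against 67.2 and 101 CPM in WT_FI, without overlap. Its log2 fold change was -5.43 (SE 0.58, adjusted p = 0.0103, edgeR). Both were the deepest falls among the genes in this table.

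Heyl, the most abundant Hey gene of quiescent cells, had 45.9 and 34.5 CPM in WT_Cul against 382 and 302 CPM in WT_FI. It fell by 3.08 on the log2 scale (SE 0.39, adjusted p = 0.0125, edgeR). Dtx4, a Deltex ubiquitin ligase, had 23.3 and 21.5 CPM in WT_Cul against 249 and 178 CPM in WT_FI. It fell by 3.24 on the log2 scale (SE 0.37, adjusted p = 0.0106, edgeR). Neither gene had a WT_Cul library near the WT_FI range.

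Hes1, the broadly expressed Hes repressor, had 61.3 and 42.9 CPM in WT_Cul against 179 and 249 CPM in WT_FI. It fell by 2.04 on the log2 scale (SE 0.42, adjusted p = 0.0252, edgeR), the mildest fall of the 5, and it was not called without WT_FI index 1 (log2 -1.71, adjusted p = 0.152). Hey1 had 19.8 and 8.85 CPM in WT_Cul against 53.9 and 41.6 CPM in WT_FI. Its log2 fold change of -1.72 (95% interval -3.02 to -0.42) missed the threshold at adjusted p = 0.0588 in edgeR and passed it with DESeq2 (adjusted p = 0.0111).

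Hes6, the antagonist of Hes1, had 620 and 61.4 CPM in WT_Cul against 23.7 and 7.73 CPM in WT_FI. Every WT_Cul library lay above both WT_FI libraries, but the WT_Cul libraries were themselves far apart, and the higher of them is the library with the high Myog level. The log2 fold change of 4.48 (SE 1.27, 95% interval 1.25 to 7.72) had an adjusted p of 0.0531 in edgeR and 2.04e-05 in DESeq2. Without WT_Cul index 0 the estimate was 1.96, and without WT_Cul index 1 it was 5.35. Hes5 had 0 and 1 fragments in WT_Cul against 5 and 2 fragments in WT_FI, and no fold is given for it here.

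Markers of other cell types moved in the same direction as the 5 genes. In this table the pericyte and smooth muscle markers summed to 2106 to 2189 CPM in WT_Cul against 23322 to 29442 CPM in WT_FI, and the endothelial markers to 46.3 to 100.4 CPM in WT_Cul against 545 to 589 CPM in WT_FI. The 8 fibroblast and fibro-adipogenic markers summed to 968 to 1703 CPM in WT_Cul against 18995 to 29891 CPM in WT_FI, and the 4 Schwann cell markers to 209.5 to 452 CPM in WT_Cul against 1403 to 1601 CPM in WT_FI. None of these markers was at 0 in both libraries of either group. The 8 satellite cell markers summed to 1569 to 2107 CPM in WT_Cul against 1921 to 2342 CPM in WT_FI. The part of other cell types in the lower Notch target levels was not tested.

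The WT libraries of the KO/WT tables give the same comparison in other samples, 2 WT_Cul and 3 WT_FI, joined across tables, so state and Cuffdiff run cannot be told apart. All 7 genes with a fold were called, 6 lower and Hes6 higher, where 53.5% of 16698 genes tested were called. Heyl had 1.93 and 1.03 CPM in WT_Cul against 903, 1034 and 905 CPM in WT_FI, a log2 fold change of -8.96 (95% interval -11.25 to -6.67). That interval does not overlap the one of the WT states table, -4.06 to -2.09, and the difference itself was not tested. Hey1 had 2.25 and 3.13 CPM in WT_Cul against 145, 140 and 117 CPM in WT_FI, a log2 fold change of -5.32 (95% interval -6.27 to -4.36). For Hey1 and Heyl the WT_Cul levels of these tables were the lower of the 2 sets and the WT_FI levels the higher.

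The other log2 fold changes in these libraries were -3.22 for Hes1, -5.92 for Hey2, -6.73 for Nrarp, -4.79 for Dtx4 and 2.45 for Hes6, with adjusted p between 1.43e-05 and 0.0240 over the 7 genes (edgeR). Hes5, a Hes repressor best known from neural progenitors, had 0 fragments in both WT_Cul libraries, out of 160223676 fragments together, and 0.508, 0.119 and 0.250 CPM in WT_FI. The mean WT_FI level of Hes5 was 7.79 times a floor of 3 fragments per WT_Cul library, and 4.92 times that floor without WT_FI index 0. The floor covers counting error in WT_Cul only, not that of the few fragments in WT_FI. No test is given for Hes5, since it passed the filter on low counts only through the FI libraries. In these libraries the pericyte and smooth muscle markers summed to 62.6 to 107.5 CPM in WT_Cul against 3606 to 8341 CPM in WT_FI, and the fibroblast and fibro-adipogenic markers to 81.3 to 185 CPM in WT_Cul against 4564 to 6904 CPM in WT_FI. The satellite cell markers were lower too, at 1437 to 1646 CPM in WT_Cul against 4742 to 6913 CPM in WT_FI. The part of these markers in the lower levels was not tested. Dtx4 was the gene whose mean WT_Cul level was closest between the sets, 22.4 CPM on average in the WT states table and 27.0 CPM in the Cul table.

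KO cells showed the same pattern on entering culture. In KO_Cul relative to KO_FI, again joined across tables so that state and run cannot be told apart, 6 genes fell and Hes6 rose, where 54.9% of all genes tested were called. Heyl had 5.33 and 1.67 CPM in KO_Cul against 853, 1662 and 1482 CPM in KO_FI, a log2 fold change of -8.11 (SE 1.00, adjusted p = 1.10e-04, edgeR). Hey2 had 0.0925 and 0.0620 CPM in KO_Cul against 11.6, 7.28 and 7.79 CPM in KO_FI, a log2 fold change of -6.38 (SE 0.75, adjusted p = 8.69e-05, edgeR). The log2 fold change was -5.59 for Nrarp, -4.99 for Dtx4, -4.50 for Hey1, -2.46 for Hes1 and 2.55 for Hes6, with adjusted p between 1.86e-05 and 0.0196 over the 7 genes (edgeR). Hes6 was not called without KO_FI index 0, KO_FI index 2 or KO_Cul index 0. Hes5 had 0 fragments in both KO_Cul libraries, of 156302797 fragments together, and 3 to 24 fragments in KO_FI. Its mean KO_FI level was 4.95 times the floor of 3 fragments per KO_Cul library, and 2.64 times that floor without KO_FI index 0. As in WT cells, markers of other cell types were lower in culture. The pericyte and smooth muscle markers summed to 131 to 140 CPM in KO_Cul against 3574 to 4389 CPM in KO_FI, and the satellite cell markers to 1662 to 1689 CPM in KO_Cul against 5024 to 5756 CPM in KO_FI. Their part was not tested.

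**Figure D2:**
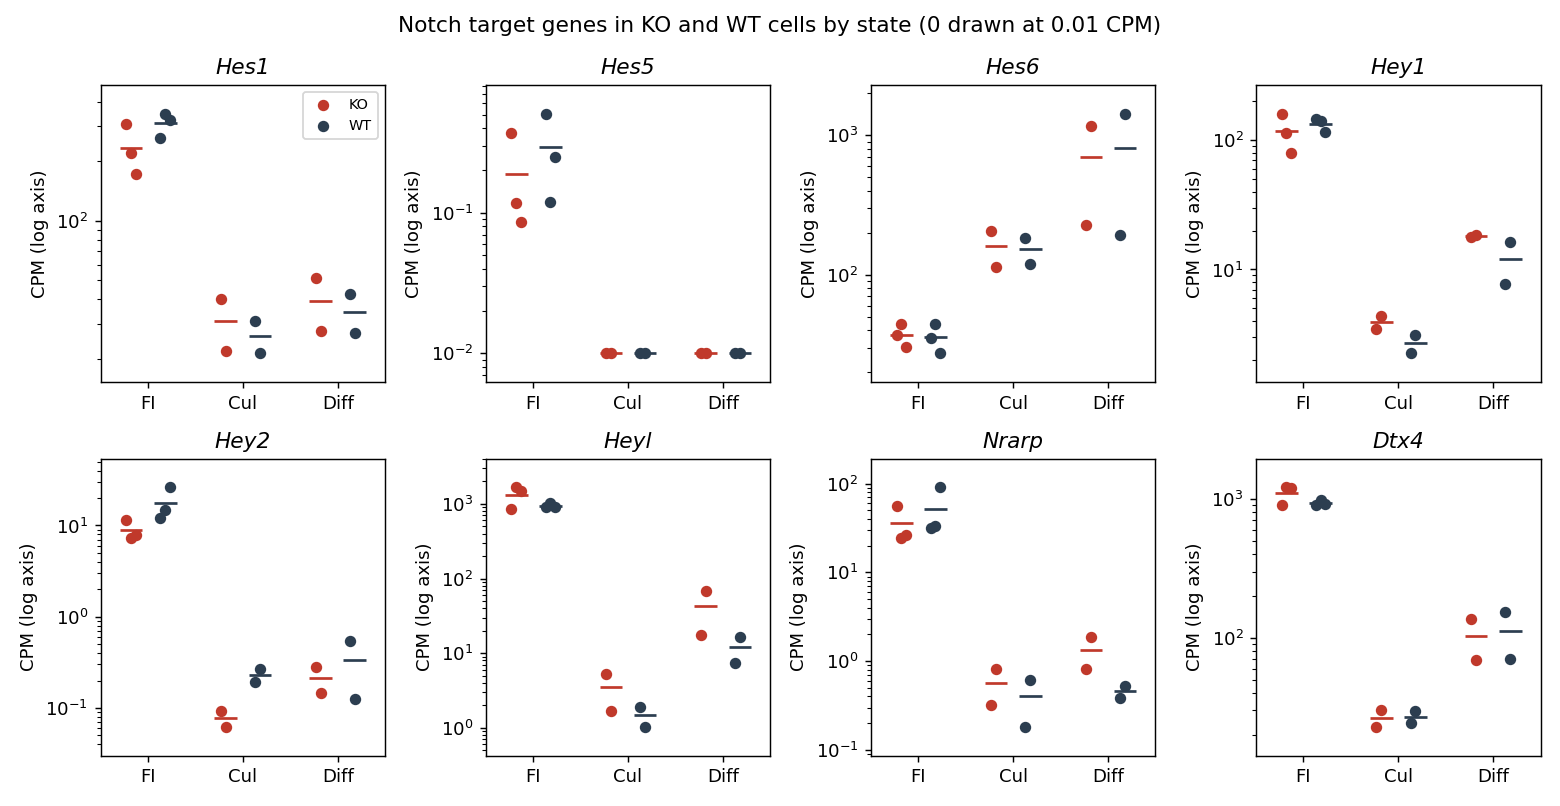
CPM (log axis) of each gene in the 3 KO/WT tables, each gene in its own panel, KO libraries in red left of WT libraries in dark blue, with lines at group means and values of 0 drawn at 0.01 CPM. Hey1, Heyl and Dtx4 lie far lower in Cul than in FI and at levels between them in Diff, Hes5 is at 0 in Cul and Diff, and Hes6 lies higher in Cul and Diff than in FI.

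In differentiation medium some of the genes were higher than in proliferating cells. In WT_Diff relative to WT_Cul, joined across tables so that state and run cannot be told apart, Hey1 and Dtx4 rose and no gene of the set fell, where 3.11% of all genes tested were called. Hey1 had 7.70 and 16.2 CPM in WT_Diff against 2.25 and 3.13 CPM in WT_Cul, a log2 fold change of 2.09 (SE 0.38, adjusted p = 0.0202, edgeR). Dtx4 had 152 and 70.9 CPM in WT_Diff against 24.2 and 29.9 CPM in WT_Cul, a log2 fold change of 1.95 (SE 0.38, adjusted p = 0.0275, edgeR). Both genes stayed far under their WT_FI levels of 117 to 145 CPM and 909 to 984 CPM in the FI table. Heyl had 7.46 and 16.6 CPM in WT_Diff against 1.93 and 1.03 CPM in WT_Cul, and its log2 difference of 2.91 missed the threshold (adjusted p = 0.0739, edgeR).

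In KO_Diff relative to KO_Cul, Hey1, Dtx4 and Heyl rose, where 4.13% of all genes tested were called. Heyl had 17.8 and 67.2 CPM in KO_Diff against 5.33 and 1.67 CPM in KO_Cul, a log2 fold change of 3.52 (SE 0.82, adjusted p = 0.0423, edgeR). Hey1 had 17.7 and 18.5 CPM in KO_Diff against 3.46 and 4.34 CPM in KO_Cul, a log2 fold change of 2.15 (SE 0.38, adjusted p = 0.0174, edgeR). Dtx4 had 137 and 69.3 CPM in KO_Diff against 22.8 and 30.0 CPM in KO_Cul, a log2 fold change of 1.88 (SE 0.38, adjusted p = 0.0286, edgeR). Hes1, Hey2, Nrarp and Hes6 had estimates above 0 in both genotypes that did not pass, Hes6 with 192 and 1431 CPM in WT_Diff and 230 and 1168 CPM in KO_Diff.

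These calls needed both Cul libraries of their genotype. The number called among all genes also moved widely when a library was left out, as given in the last section. Calls gained or lost in this way are thus not particular to the set. Without either WT_Cul library no gene of the set was called in WT cells, and without either KO_Cul library none was called in KO cells. The log2 estimates stayed close, between 1.90 and 2.23 for Hey1 and Dtx4 in WT cells and between 1.79 and 2.22 in KO cells, whereas Heyl in KO cells ran between 2.87 and 4.74. Without index 1 of the Diff group only Dtx4 was called in either genotype, and without WT_Diff index 0 Hes6 and Heyl were called in WT cells as well. Dtx4 was higher at index 0 than at index 1 in Diff cells of both genotypes, whereas Hes6, Heyl and Nrarp were higher at index 1, the libraries with the strong muscle differentiation RNA. The summed differentiation markers at index 1 were 18860 CPM in KO_Diff and 8907 CPM in WT_Diff, and at index 0 they were 302 CPM in KO_Diff and 127 CPM in WT_Diff. Pericyte and smooth muscle markers and fibroblast and fibro-adipogenic markers, as sums, were also higher in Diff. The pericyte and smooth muscle markers summed to 179 to 1522 CPM in WT_Diff against 62.6 to 107.5 CPM in WT_Cul, and to 320 to 3008 CPM in KO_Diff against 131 to 140 CPM in KO_Cul. The fibroblast and fibro-adipogenic markers summed to 269 to 451 CPM in WT_Diff against 81.3 to 185 CPM in WT_Cul, and to 544 to 744 CPM in KO_Diff against 125.5 to 237 CPM in KO_Cul. Rgs5, a pericyte marker, had 1 and 8 fragments in WT_Cul and 0 in both WT_Diff libraries. It had 7 and 7 fragments in KO_Cul and 1 and 2 in KO_Diff. Pdgfrb, of the same list, went the other way, with 1.01 and 3.63 CPM in WT_Diff against 0.848 and 0.966 CPM in WT_Cul. In KO cells Pdgfrb had 4.88 and 14.3 CPM in KO_Diff against 1.19 and 3.45 CPM in KO_Cul. The other markers of that list are given only as sums. The endothelial markers summed to 3.12 to 11.3 CPM in WT_Diff against 8.28 to 12.5 CPM in WT_Cul. In KO cells they summed to 5.085 to 12.2 CPM in KO_Diff against 6.16 to 13.8 CPM in KO_Cul. The sums of the Schwann cell and of the macrophage and leukocyte markers overlapped between Diff and Cul in both genotypes. The part of these markers and of the degree of differentiation was not tested.

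None of the genes passed the threshold between KO and WT cells in any state. In freshly isolated cells, edgeR called 0 of 7, where it called 0% of 15146 genes tested (621 had an unadjusted p under 0.05, and DESeq2 called 114 genes, none of the set). Only Hey2 had groups that did not overlap, where 10.2% of all genes tested did not. Hey2 had 11.6, 7.28 and 7.79 CPM in KO_FI against 12.2, 14.9 and 26.1 CPM in WT_FI. The KO_FI values all lay below the WT_FI values, by a narrow gap at index 0. The log2 fold change was -1.05 (SE 0.34, 95% interval -1.87 to -0.23, unadjusted p = 0.0199, adjusted p = 1 in edgeR), and without WT_FI index 2 it was -0.67. WT_FI index 2 also had the highest pericyte and smooth muscle sum of that table, 8341 CPM where the other 5 libraries had 3574 to 4389 CPM, and the highest Nrarp level. WT_FI index 2 was also highest in endothelial markers, 861 CPM where the other libraries had 223 to 818 CPM. Its macrophage and leukocyte sum of 318 CPM was the highest too, the others having 122 to 229 CPM. Its fibroblast and fibro-adipogenic sum and its Schwann cell sum lay within the range of the other libraries. The part of any of these cell types in the Hey2 difference was not tested.

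The most abundant genes differed less. Hes1 had 308, 221 and 173 CPM in KO_FI against 262, 348 and 325 CPM in WT_FI, a log2 fold change of -0.48 (95% interval -1.07 to 0.11). Heyl had a log2 fold change of 0.45 (95% interval -0.26 to 1.15), with KO_FI index 0 below all WT_FI libraries and the other KO_FI libraries above them. Dtx4 had 912, 1210 and 1203 CPM in KO_FI against 909, 984 and 914 CPM in WT_FI, a log2 fold change of 0.20 (95% interval -0.25 to 0.64). Nrarp had 56.4, 24.7 and 26.3 CPM in KO_FI against 31.8, 33.6 and 90.8 CPM in WT_FI, a log2 fold change of -0.60 (95% interval -1.85 to 0.65). Hey1 had a log2 fold change of -0.24 (95% interval -0.84 to 0.36) and Hes6 of 0.01 (95% interval -0.58 to 0.60). Hes5 had 24, 4 and 3 fragments in KO_FI against 28, 4 and 7 in WT_FI and was not tested. The groups overlapped in each of these genes.

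**Figure D3:**
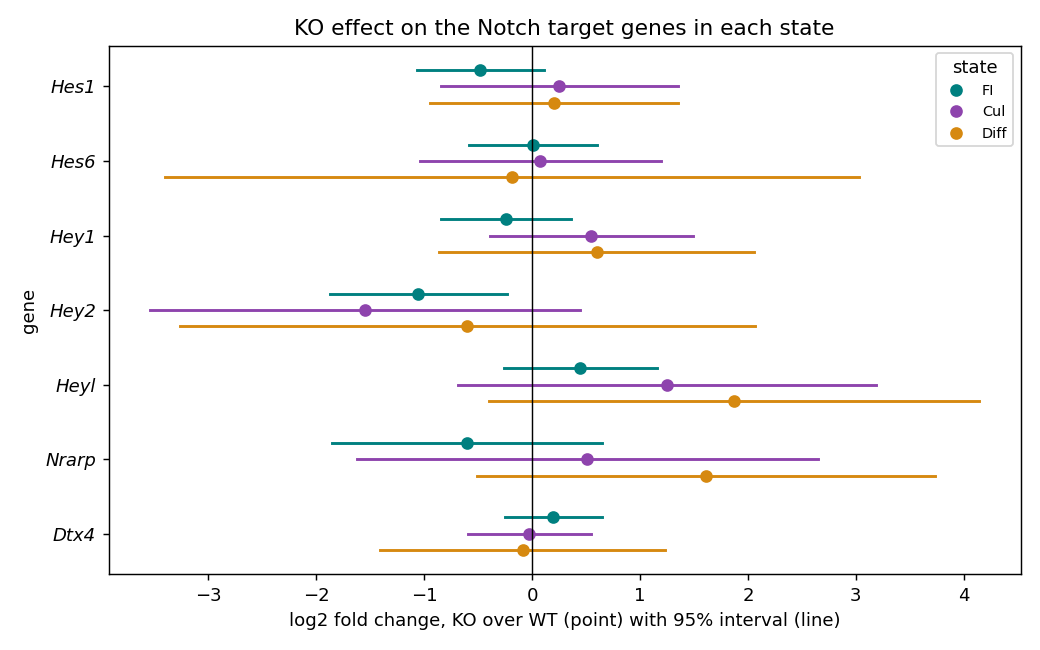
Log2 fold change of KO over WT (point) with its 95% interval (line) for the 7 genes tested, by state, from the fits within each table. Of these 21 unblocked intervals only that of Hey2 in FI, -1.87 to -0.23, leaves out 0, and those of Heyl and Nrarp in Diff lie mostly above 0. The blocked joined fit, given at the end, had further intervals that left out 0 and called none of the 7 genes.

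In proliferating cells edgeR called 0 of 7, where 0% of 13963 genes were called (112 had an unadjusted p under 0.05, and DESeq2 called 3 genes, none of the set). Hey1 had 3.46 and 4.34 CPM in KO_Cul against 2.25 and 3.13 CPM in WT_Cul, and Hey2 had 0.0925 and 0.0620 CPM in KO_Cul against 0.194 and 0.271 CPM in WT_Cul. Neither pair of groups overlapped, which held for 21.1% of all genes tested. The log2 fold change was 0.55 for Hey1 (95% interval -0.39 to 1.49) and -1.55 for Hey2 (95% interval -3.54 to 0.45), Hey2 resting on 5 to 21 fragments per library. In this table Hey2 passed the filter on low counts only through the WT_Cul libraries, where it was higher. Its fold and lack of overlap in Cul are therefore descriptions only. Heyl had 5.33 and 1.67 CPM in KO_Cul against 1.93 and 1.03 CPM in WT_Cul, a log2 fold change of 1.25 (95% interval -0.68 to 3.19). Its groups overlapped, although the KO_Cul value was the higher at each index, and with the block over the 7 pairs the log2 fold change was 1.15 (95% interval 0.42 to 1.89) and was not called (adjusted p = 0.713, edgeR). Hes1, Hes6 and Nrarp also overlapped, with log2 fold changes of 0.25 (95% interval -0.85 to 1.35) for Hes1, 0.07 (95% interval -1.04 to 1.19) for Hes6 and 0.51 (95% interval -1.63 to 2.65) for Nrarp. Dtx4 differed least, with a log2 fold change of -0.03 (95% interval -0.60 to 0.54). Hes5 was at 0 in all 4 libraries, each at a depth where 3 fragments come to about 0.0363 to 0.0396 CPM.

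In differentiating cells edgeR called 0 of 7, where 0% of 14482 genes were called (27 had an unadjusted p under 0.05, and DESeq2 called 0). Heyl had 17.8 and 67.2 CPM in KO_Diff against 7.46 and 16.6 CPM in WT_Diff, and Nrarp had 0.819 and 1.88 CPM in KO_Diff against 0.386 and 0.529 CPM in WT_Diff. Hey1 had 17.7 and 18.5 CPM in KO_Diff against 7.70 and 16.2 CPM in WT_Diff. In all 3 genes the KO_Diff libraries lay above the WT_Diff libraries, which, in either direction, held for 13.6% of all genes tested. The log2 fold change of Heyl was 1.87 (SE 0.88, 95% interval -0.39 to 4.14), that of Nrarp 1.61 (SE 0.82, 95% interval -0.51 to 3.73) and that of Hey1 0.60 (SE 0.56, 95% interval -0.86 to 2.06), with adjusted p = 1 in edgeR for each. The other 4 genes had overlapping groups, with log2 fold changes of 0.20 for Hes1 (95% interval -0.95 to 1.35), -0.19 for Hes6 (95% interval -3.40 to 3.03), -0.60 for Hey2 (95% interval -3.26 to 2.06) and -0.09 for Dtx4 (95% interval -1.41 to 1.23). Hes5 was at 0 in all 4 libraries.

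Whether Heyl was called depended on how the libraries were matched, while its log2 estimate changed little with the matching. With the index within the table as a block, Heyl was called (log2 1.66, adjusted p = 8.94e-05, edgeR), as were 147 genes in all, in a fit that leaves little freedom to measure the spread. With state and index as a block over the 7 matched KO and WT library pairs of the 3 tables, the log2 fold change of Heyl was 1.70 (SE 0.29, 95% interval 1.02 to 2.37) and it was not called (adjusted p = 0.206, edgeR). Leaving out KO_Diff index 1 brought the unblocked estimate of Heyl to 0.51 and that of Nrarp to 0.79. Notch3, a receptor, had 112 and 99.9 CPM in KO_Diff against 55.9 and 32.3 CPM in WT_Diff (log2 1.31, adjusted p = 1 in edgeR), and with the table index as a block it was called (log2 1.34, adjusted p = 0.00141, edgeR). With the block over the 7 pairs Notch3 was not called either (log2 1.37, adjusted p = 0.342, edgeR). Fibroblast and fibro-adipogenic markers summed to 544 to 744 CPM in KO_Diff against 269 to 451 CPM in WT_Diff, and pericyte and smooth muscle markers to 320 to 3008 CPM in KO_Diff against 179 to 1522 CPM in WT_Diff. Of the defining pericyte markers, Pdgfrb had 4.88 and 14.3 CPM in KO_Diff against 1.01 and 3.63 CPM in WT_Diff, higher in KO_Diff at both indices as Heyl was, and Rgs5 had 1 and 2 fragments in KO_Diff and 0 in both WT_Diff libraries. Macrophage and leukocyte markers were lower in KO_Diff at both indices, 9.40 and 3.87 CPM against 13.45 and 8.66 CPM in WT_Diff. Schwann cell markers had 10.3 and 6.85 CPM in KO_Diff against 6.89 and 7.515 CPM in WT_Diff. Endothelial markers had 12.2 and 5.085 CPM in KO_Diff against 11.3 and 3.12 CPM in WT_Diff. The differentiation markers summed to 302 and 18860 CPM in KO_Diff against 127 and 8907 CPM in WT_Diff. The part of these markers and of the degree of differentiation in the Heyl difference was not tested.

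**Figure D4:**
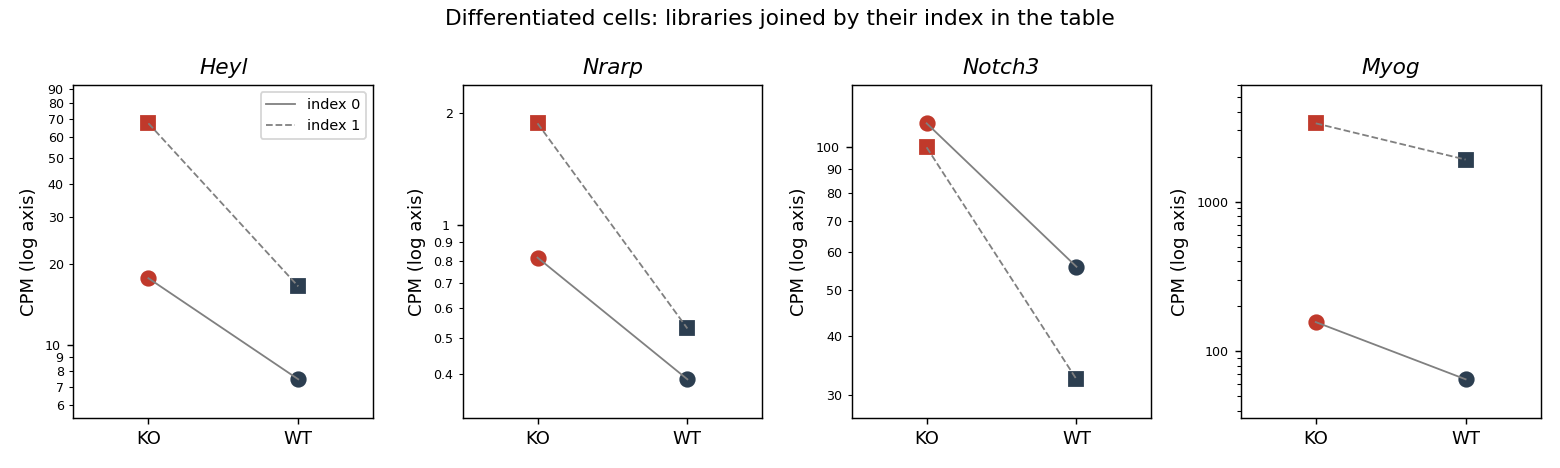
CPM (log axis) of Heyl, Nrarp, Notch3 and Myog in the 4 libraries of the Diff table, KO left of WT, with grey lines joining libraries of the same index (circles and solid lines index 0, squares and dashed lines index 1). At each index the KO value lies above the WT value for all 4 genes, and Heyl, Nrarp and Myog are higher at index 1 than at index 0 in the same genotype.

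Whether the SIRT1 effect on the set differed between states was tested by the interaction in the 14 joined libraries. Between Cul and FI, between Diff and FI and between Diff and Cul, edgeR called 0 of the genes, where 0% of 16698 genes were called in each (196, 211 and 245 genes had an unadjusted p under 0.05, and DESeq2 called 0 in each). The estimate that stood out most was Nrarp in Diff against FI, a log2 difference of 2.23 (SE 0.93, 95% interval 0.19 to 4.28, unadjusted p = 0.0346, adjusted p = 1 in edgeR). Nrarp rested on 32 to 155 fragments per library in Diff. Within FI, its KO effect of -0.60 became 0.064 without WT_FI index 2. In Diff against FI, Heyl had 1.46 (95% interval -0.67 to 3.58) and Hey1 0.88 (95% interval -0.16 to 1.93). Between Diff and Cul, the estimates of the 7 genes ran between -0.25 and 1.10.

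The remaining Notch pathway was read in 66 other genes in 7 lists: 4 receptors, 7 ligands, 9 genes of receptor cleavage, 9 of the nuclear complex, 13 corepressors, 18 modulators and 6 other Hes-related repressors. Of these, 61 were tested in the WT states table, and 3 rose and 13 fell in WT_Cul relative to WT_FI, where 12.6% of all genes tested were called higher and 16.0% lower. Their median log2 fold change was -0.25, and that of all genes tested was 0.06. Among the receptors 1 of 4 fell, Notch3, with 50.9 ± 21.8 CPM in WT_Cul against 1839 ± 243 CPM in WT_FI (log2 -5.18, SE 0.56, adjusted p = 0.0103, edgeR). Among the 6 ligands tested 2 fell, the endothelial ligand Dll4 (log2 -5.95) and the non-canonical ligand Dlk1 (log2 -3.98), with Dlk1 lost without WT_FI index 0. Jag2 had a log2 difference of 1.97 that did not pass (adjusted p = 0.0628, edgeR). Among the 18 modulators 4 fell, with the Deltex gene Dtx3 (log2 -3.12) and the ubiquitin ligase gene Neurl1b (log2 -2.90) at the smallest p, and 1 rose, Nle1 (log2 2.29). The corepressor Tle2 (log2 -3.13) and the acetyltransferase gene Kat2b (log2 -2.76) fell, and the acetyltransferase gene Kat2a (log2 1.38) rose. Of the 9 receptor cleavage genes, 2 fell, Aph1c and Aph1b, and of the Hes-related repressors 1 of 2 tested fell, Bhlhe40 (log2 -1.73). Without WT_FI index 1 Aph1c was not called (adjusted p = 0.0622, edgeR). Leaving out either WT_FI library ended the call of Kat2a, Nle1, Aph1b, Bhlhe40, Ctbp2 and Tle1.

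In KO against WT none of the 61 pathway genes tested in FI, and none of the 60 in Cul or in Diff, passed in edgeR, with median log2 fold changes of 0.03, 0.03 and 0.17, where all genes tested had -0.03, 0.02 and -0.01. The gene with the smallest p in FI was Dtx1, a Deltex gene like Dtx4, with 6.98 ± 0.84 CPM in KO_FI and 2.64 ± 0.57 CPM in WT_FI (SD, n = 3 each; log2 1.36, SE 0.22). It did not pass in edgeR (adjusted p = 0.478) and passed in DESeq2 (adjusted p = 5.16e-05). All 4 receptors had estimates above 0 in FI and in Diff, the smallest p being that of Notch3 in both, which had 3306 ± 35.9 CPM in KO_FI and 2423 ± 542 CPM in WT_FI (SD, n = 3 each; log2 0.41, adjusted p = 1 in edgeR).

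Across the 18 libraries the members other than Hes5 and Hes6 varied together, and Hes6 ran against them. Hes5 was left out of these correlations. Pearson's r of log2 CPM (prior count 2) was 0.97 between Hey1 and Heyl, 0.95 between Hey2 and Nrarp and 0.92 between Hes1 and Nrarp, and 0.71 between Hey2 and Dtx4, the weakest among these 6. Hes6 had r between -0.83 and -0.53 with them. These are descriptions over libraries that share states and tables, with no test. With Myod1, r was -0.93 for Hey2 and Nrarp and 0.87 for Hes6. With the pericyte marker Rgs5, r was 0.96 for Nrarp, 0.95 for Hey2 and 0.75 for Dtx4. With Pax7, it was 0.88 for Dtx4 and 0.63 for Hey2. With Notch3, it was 0.97 for Heyl and 0.96 for Hey1.

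Among 11422 other genes with a mean of at least 5 CPM, the patterns most like each member over the 18 libraries were, by Pearson's r, those of Gem (0.98), Cmpk2 (0.97) and Irf1 (0.97) for Hes1, and of Csdc2 (0.98), 9330159F19Rik (0.98) and Sik1 (0.98) for Hey1. For Hey2 they were Ptprk (0.985), Ryr2 (0.98) and Olfr558 (0.98), and for Heyl they were Mirg (0.98), Col6a1 (0.98) and Csdc2 (0.97). For Nrarp they were AW011738 (0.99), Epas1 (0.985) and Susd2 (0.98), and for Dtx4 they were Klhl36 (0.98), Palm (0.98) and Maob (0.98). For Hes6 they were A230051G13Rik (0.97), Uqcc (0.97) and Nudt2 (0.97). Hes5, at 0 to 28 fragments per library, came out nearest to Beta-s (0.98), Cish (0.97) and Mpo (0.97), and so few fragments leave that order without weight. Csdc2 was the only gene near 2 members, Hey1 and Heyl.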

How the data were processed

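The 4 deposited tables come from pairwise Cuffdiff runs and hold raw fragments, which are estimated counts per gene and library, and FPKM, which the authors scaled table by table, both per the file headers. Depending on the library, 1.42% to 8.18% of the values above 0 missed a whole number by over 0.01. Per the submitters' processing notes the build was mm9 and the tools were Cuffdiff, TopHat, Bowtie and SICER, with no versions given. Table rows give a condition and an index, not the labels' replicate number, and the letter for proliferating cells was matched to Cul by elimination. Genes not marked OK in every library of a table were left out (12 to 27 of 22552), Rbpj in Cul and Diff among them. The number of per-sample columns left unused was 0. No library was a copy of another (lowest chi-square per degree of freedom within a group 26.3).

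Counts were rounded and fitted with edgeR 4.0.16 (filterByExpr, TMM, robust quasi-likelihood F test, R 4.3.3), within each table for the KO comparisons and the WT states, and over the 14 libraries of the KO/WT tables for interactions and other contrasts. Intervals are 95%. CPM uses each library's total without TMM. Alternatives were DESeq2 1.42.0, limma 3.58.1 on log2(FPKM + 1) or log2(FPKM + 0.1), other size factors, no filter, blocks and leaving out libraries. The fits were tried on simulated counts drawn independently for each library. That simulation held no index pairing, so it does not speak to how the fits behave with it. Libraries of the same index deviated together (r of deviations from the group means 0.866, 0.683 and 0.584 in FI, 0.732 in Cul, 0.787 in Diff). The 7 index pairs were therefore treated as pairs in the blocked joined fit, from the data and not from the labels. In FI, r was also 0.536 between KO_FI index 2 and WT_FI index 1, and 0.348 between KO_FI index 1 and WT_FI index 2. These values thus tell FI indices 1 and 2 apart only weakly. With 2 libraries a group, the deviations in Cul and in Diff mirror each other, so each of these tables gives only 1 value of r. Counting is not stated to use strand. Members and lists were chosen with earlier results of these data known. Named genes are the members, up to 3 genes with the smallest p per pathway list, myogenic context genes and the 3 genes most like each member.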

Additional observations from a re-analysis of the deposited data

Results flagged for a closer look

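Hes5 in WT_Cul was marked by a check for values far from the rest of their group. Over the 4 WT_Cul libraries of both tables, index 1 of the WT states table had 0.0316 CPM, which is 1 fragment, and the other 3 were at 0. The same check was made in 16 groups of 4 or 5 libraries, 1 for each gene in WT_FI and in WT_Cul, and chance marks about 1 in 20 groups of continuous values. That rate does not hold here, since with the other libraries at 0 any single fragment would be marked. No interaction between genotype and state passed the threshold for any gene of the set.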

How the results depend on the processing

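Over 777 refits of the 7 fitted genes, 680 kept direction and call, 17 lost the call, 18 gained it and 62 changed sign. No sign change was of a called value, and the cause of each change listed here was not tested. The number of genes called moved as follows. In KO_FI against WT_FI it was 114 with DESeq2 and 4 with the joined replicate block. In KO_Cul against WT_Cul it was 3 with DESeq2 and 3 with the table index as block. In KO_Diff against WT_Diff it was 147 with the table index as block and 1 with the joined block. For the KO effect in Diff against FI it was 2 with the block. In WT_Cul against WT_FI it was 8941 in the libraries of the other tables. DESeq2 called 2220 genes in WT_Diff against WT_Cul and 2283 in KO_Diff against KO_Cul. Apart from Heyl in Diff, the block changed no KO call of the genes. In the joined fit with the block, the 95% intervals of Hey2 and of Hes1 (-0.97 to -0.013) in FI left out 0. So did those of Hey1, Hey2 and Heyl in Cul. In Diff those of Heyl, Hey1 (0.19 to 1.30) and Nrarp (0.16 to 2.91) did. None of these was called there (lowest adjusted p = 0.206, Heyl in Diff, edgeR). In the WT states table, with 2 libraries a group, the index is only a shared number (r of deviations 0.387), and with it as a block Hes6 and Hey1 were called as well. Log2 estimates near 0 changed sign: Dtx4 in Cul was 0.0037 in the joined fit and 0.00153 with the joined block. Hes6 in Diff was 0.00953 with limma at pseudocount 1, 0.0101 at 0.1, 0.0106 with the table index as block and 0.0383 with the joined block. Its effect in Diff against FI was 0.0098 with the block.

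Leaving out each library in turn moved the genes called in WT_Cul against WT_FI to between 2063 and 8050, in WT_Diff against WT_Cul to 5 to 3829 and in KO_Diff against KO_Cul to 0 to 1683. The log2 estimates that changed sign ran as follows. In KO_FI against WT_FI, Hes6 -0.16 to 0.24 and Nrarp -1.05 to 0.064. In KO_Cul against WT_Cul, Hes1 -0.34 to 0.66, Hes6 -0.51 to 0.51, Nrarp -0.23 to 1.52 and Dtx4 -0.17 to 0.088. In KO_Diff against WT_Diff, Hes1 -0.20 to 0.54, Hes6 -1.90 to 2.03, Hey2 -1.27 to 0.69, Dtx4 -0.55 to 0.47, Dner -1.05 to 3.42 and Dtx3 -1.03 to 0.34. In WT_Cul against WT_FI, Bhlhe41 -0.35 to 1.26. For the KO effect in Cul against FI, Hes6 -0.53 to 0.57 and Heyl -0.37 to 1.505. For Diff against FI, Hes6 -1.88 to 2.00, Hey2 -0.22 to 1.77 and Dtx4 -0.75 to 0.29. For Diff against Cul, Hes1 -0.51 to 0.57, Hes6 -1.98 to 1.89, Hey1 -0.43 to 0.75, Heyl -0.77 to 1.83 and Dtx4 -0.55 to 0.49. In WT_Diff against WT_Cul, Hes1 -0.039 to 0.71, Hey2 -0.88 to 1.11 and Nrarp -0.42 to 1.13. In KO_Diff against KO_Cul, Hes1 -0.22 to 0.85. A group left with 1 library was assumed to vary like the others. Depth limits Hes5 in every table and Hey2 and Nrarp in Cul and Diff. The joined fits of the KO effects, with and without the block, and the Hes5 ratios to the floor without an FI library were chosen after seeing the data.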
